A study of Mus musculus with 12 samples.

Results

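The serum response of wild-type mouse kidneys was measured as the difference between 3 WT NTS kidneys and 3 WT control kidneys, taken by their sample labels from the 12 kidneys of the series. WT NTS kidneys came from Aim2 wild-type females of 8 to 10 weeks, at day 9 after nephrotoxic serum (NTS), which holds antibodies to the glomerular basement membrane and brings on an immune glomerulonephritis. WT control kidneys came from untreated Aim2 wild-type females of the same age range, for which the labels give no day. The wild-type mice are F1 littermates and the Aim2 knockout mice are named B6 in the labels, and the 3 KO NTS and 3 KO control kidneys serve here for the estimate of the spread and for 1 comparison at the end. Whole-kidney RNA was hybridized to a panel of 750 endogenous and 20 housekeeping genes, and all 770 were examined, of which 677 had enough signal to be tested.

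In this form of nephritis, antibody bound along the glomerular basement membrane engages complement and Fc receptors and draws leukocytes into the glomerulus. Injury then spreads to the tubules, whose epithelial cells lose differentiated functions, secrete chemokines and osteopontin, and re-enter the cell cycle as part of repair. Whole-kidney RNA blends glomeruli, tubules, vessels and leukocytes, so in every result below fewer cells of a type and less RNA per cell cannot be told apart.

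The signal is the authors' normalized value per gene, scaled on the housekeeping genes, and no value lies under a floor of 10.02 to 15.11 per sample set by the negative control probes. The tissue label was checked on the tubular genes Fbp1 and Egf, which were far above that floor in all 6 kidneys. Fbp1, an enzyme of gluconeogenesis in the proximal tubule, was at 28256, 35599 and 34598 in WT NTS, against 21865, 41106 and 32775 in WT control. Aim2 itself was not analysed here, and the genotype could not be checked against it. Of the 770 genes, 53, 88 and 80 lay at the floor in WT NTS 1, 2 and 3, against 140, 117 and 126 in WT control 1, 2 and 3. Over the 677 tested genes, pairs of WT NTS kidneys correlated at 0.963 to 0.979 and pairs of WT controls at 0.95 to 0.979. Pairs across the groups correlated at 0.911 to 0.981, a range that covers both, so the groups share most of their profile. The median standard deviation of a gene on the log2 scale was 0.41 in WT NTS and 0.26 in WT control, above the 0.22 of KO NTS and the 0.17 of KO control.

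Serum moved a limited set of genes. Of 677 genes, 54 passed an adjusted p of 0.05 with limma (7.98%), 37 higher (5.47%) and 17 lower (2.51%) in WT NTS kidneys. A gene is called below where it passed that test. At an unadjusted p under 0.05 with limma, 103 of the 677 genes were higher and 49 lower. The calls rest on a spread shared with the KO kidneys, and with the 6 WT kidneys alone in the fit 2 genes passed, Birc5 and Rrm2 (both with an adjusted p of 0.0393). Treated and control kidneys were free of overlap for 134 genes (19.8%), 85 of them higher (12.6%) and 49 lower (7.24%) in WT NTS. That held for 53 of the 54 called genes, the exception being Slc2a1. Calls and overlap rest on the same values, so the lack of overlap in called genes, here and below, adds no support to the calls. The called change reached 2-fold for 32 of the higher and 8 of the lower genes, while the median log2 change of all tested genes was 0.08. Each WT control weighed on the count of 54, which was 19, 94 and 9 when WT control 1, 2 and 3 were dropped. Dropping WT NTS 1 left 27 calls, and dropping any 1 KO kidney left 28 to 35. Scaling mattered for the balance: 31 genes were higher and 47 lower with each sample centred on its median gene, and 34 were higher and 3 lower with scaling on the positive control probes.

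**Figure D1:**
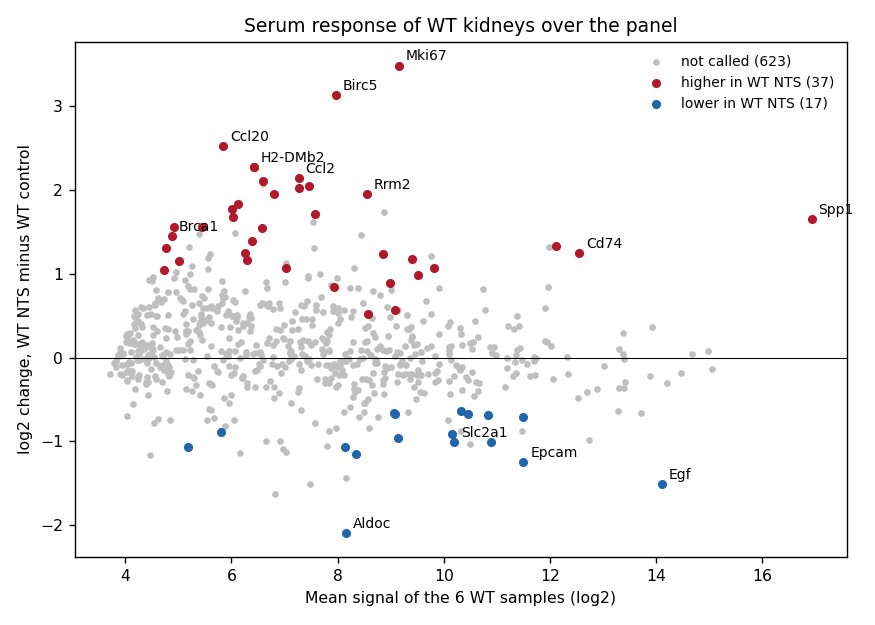
Log2 change (WT NTS minus WT control) of each of the 677 tested genes against its mean signal over the 6 WT kidneys on a log2 scale. Red points are the 37 genes called higher, blue points the 17 called lower and grey points the others; Mki67 and Birc5 lie highest, Aldoc lies lowest, and Spp1 has the strongest signal.

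Genes of cell division led the rise. Of 24 tested genes of the division list, 12 rose and 1 fell, with a median log2 change of 1.06 against 0.08 over all genes. These 12 cover DNA synthesis, chromosome segregation and cytokinesis, and the 11 members that were not called had log2 changes of -0.41 to 0.96. The median was 0.65 without WT NTS 1. The count was 7 without WT NTS 1, 8 without WT control 1 and 4 without WT control 3.

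The promoters of the 3 division genes with the smallest p are shown because late cell cycle genes are known for a CCAAT box and for the cell cycle homology region, here searched as TTTGAA. They run 5′ to 3′ on the gene's strand over 250 bases before and 50 bases after the start, from RefSeq with the build GRCm38.p6, and capitals mark either motif on either strand, reverse complements included. The windows are chr7:135716330-135716629 on the minus strand for Mki67, chr12:24708004-24708303 on the plus strand for Rrm2 and chr11:117848987-117849286 on the plus strand for Birc5.
Mki67: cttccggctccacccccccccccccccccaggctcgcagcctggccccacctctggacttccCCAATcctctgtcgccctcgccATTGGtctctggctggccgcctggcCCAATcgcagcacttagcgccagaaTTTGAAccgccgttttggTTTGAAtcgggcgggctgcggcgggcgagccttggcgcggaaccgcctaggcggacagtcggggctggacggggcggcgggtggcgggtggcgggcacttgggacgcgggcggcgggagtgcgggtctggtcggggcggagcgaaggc
Rrm2: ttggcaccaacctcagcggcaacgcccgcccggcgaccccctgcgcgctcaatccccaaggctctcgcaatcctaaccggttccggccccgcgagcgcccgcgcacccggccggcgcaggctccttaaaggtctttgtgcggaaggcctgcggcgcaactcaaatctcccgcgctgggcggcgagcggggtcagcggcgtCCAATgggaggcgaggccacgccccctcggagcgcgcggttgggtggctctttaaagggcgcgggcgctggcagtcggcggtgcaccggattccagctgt
Birc5: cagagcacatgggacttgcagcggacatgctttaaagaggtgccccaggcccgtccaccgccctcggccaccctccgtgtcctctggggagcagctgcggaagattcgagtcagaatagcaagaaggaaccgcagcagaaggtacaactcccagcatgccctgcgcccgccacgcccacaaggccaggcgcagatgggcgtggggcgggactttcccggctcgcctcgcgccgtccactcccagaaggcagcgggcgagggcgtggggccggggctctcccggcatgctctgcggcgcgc
The Mki67 window held 3 CCAAT boxes and 2 TTTGAA matches, and the Rrm2 window held 1 CCAAT box. Neither set of letters is in the Birc5 window. Of the 12 division genes that rose, all with an entry in the RefSeq table, 6 had CCAAT and 7 had TTTGAA in at least 1 window. Of all 32851 promoter windows of that length, 37.4% and 17.9% held these letters. The counts are per gene and the shares per window, so they are not on the same scale. These are descriptions of the letters in the windows, not of bound sites.

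Mki67, the nuclear antigen used to stain dividing cells, stood at 1668, 884 and 553 in WT NTS 1, 2 and 3, against 45.9, 199.6 and 60.7 in WT control 1, 2 and 3. Every treated kidney lay above every control, with WT NTS 1 the highest and WT control 2 well above the other controls. The log2 change of Mki67 was 3.49 (SE 0.52, adjusted p = 0.00343). Birc5, which encodes survivin of the chromosomal passenger complex, was at 587, 491 and 262 in WT NTS, against 35.3, 87.8 and 33.5 in WT control (log2 change 3.14, adjusted p = 0.00138). Its groups were again far apart, with the same treated and control kidneys on top.

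For DNA synthesis, Rrm2, a subunit of ribonucleotide reductase, was at 671, 701 and 427 in WT NTS, against 159, 186 and 115 in WT control. The treated kidneys were 3.87-fold higher (adjusted p = 0.00213) and here WT NTS 1 and 2 lay close together. Hells, a chromatin remodeller of replicating cells, was at 69.9, 40.7 and 27.2 in WT NTS and 21.0, 22.2 and 13.6 in WT control (2.23-fold, adjusted p = 0.0466). WT NTS 3 lay only a little above the highest control for Hells, and the gene was called under 1 of 5 scalings. Ube2t, a ubiquitin-conjugating enzyme of DNA crosslink repair, was at 137, 123 and 68.9 in WT NTS and 65.9, 42.4 and 35.6 in WT control (2.24-fold, adjusted p = 0.037).

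Several of the called division genes act in mitosis. Cdc20, which switches on the ubiquitin ligase of anaphase, was at 233, 136 and 68.9 in WT NTS, against 19.1, 37.6 and 24.1 in WT control, a 4.86-fold rise (adjusted p = 0.00962). Cenpf, a kinetochore protein, was at 266, 135 and 134 in WT NTS, against 35.3, 59.8 and 36.6 in WT control (3.88-fold, adjusted p = 0.00357). Neither gene overlapped between groups, and WT control 2 was the highest control for both. Ube2c, the ubiquitin-conjugating enzyme of the same ligase, was at 978, 561 and 418 in WT NTS and 187, 242 and 380.1 in WT control (2.36-fold, adjusted p = 0.044). Here WT control 3, at 380.1, came close to WT NTS 3, at 418, and Ube2c was called in 1 of the 6 fits that leave out 1 WT kidney. Melk, a mitotic kinase, was at 108, 55.3 and 36.9 in WT NTS and 15.1, 27.0 and 18.9 in WT control (2.96-fold, adjusted p = 0.0269).

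Cytokinesis was represented by Anln and Cep55. Anln, the scaffold protein anillin of the cleavage furrow, was at 267, 136 and 82.4 in WT NTS, against 34.4, 36.6 and 27.2 in WT control (4.33-fold, adjusted p = 0.0161). Cep55, needed for the final cut between daughter cells, was at 57.3, 37.5 and 24.2 in WT NTS and 15.1, 16.4 and 12.4 in WT control, with WT control 1 and 3 at the floor (2.47-fold, adjusted p = 0.0242). For both genes WT NTS 1 was the highest and WT NTS 3 the lowest treated kidney, still above every control. Kif2c, a kinesin that takes microtubules apart at centromeres, was at 65.0, 48.0 and 26.2 in WT NTS, while all 3 WT controls were at the floor of 15.1, 14.7 and 12.4. Taken against that floor, Kif2c was at least 3.09-fold higher (adjusted p = 0.0107).

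Ccnd3, a D-type cyclin of early G1, was the 1 member of the division list that fell, at 396, 361 and 485 in WT NTS, against 578, 674 and 708 in WT control (log2 change -0.66, adjusted p = 0.0259). Its groups did not overlap, with every treated kidney below every control. Cdc25c, the phosphatase that opens mitosis, was at 55.3, 20.9 and 19.4 in WT NTS, with all 3 controls at the floor, and was not called (adjusted p = 0.0987).

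**Figure D2:**
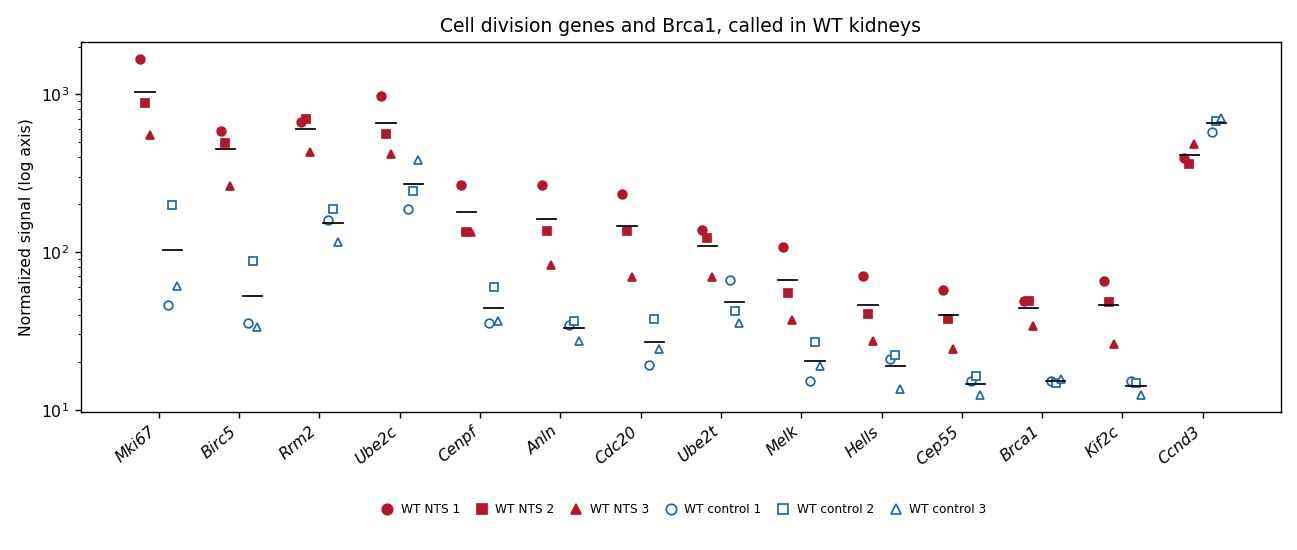
Normalized signal on a log axis of the 13 called genes of the division list and of Brca1, with WT NTS kidneys as filled red symbols left of WT control kidneys as open blue symbols; bars are group means (n = 3 each). For all 13 genes that rose every treated kidney lies above every control, and Ccnd3 runs the other way.

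DNA damage genes gave fewer calls than division genes. Of 24 tested genes of DNA repair and the p53 pathway, 3 rose, a share above the 5.47% of all tested genes. The list's median log2 change was 0.07. That median was -0.039 without WT NTS 1, 0.19 without WT NTS 2, 0.18 without WT NTS 3 and 0.12 without WT control 2. Among the risen genes, Brca1, which acts in homologous recombination, was at 48.5, 49.0 and 33.9 in WT NTS and 15.1, 14.7 and 15.7 in WT control, with WT control 1 and 2 at the floor (2.73-fold, adjusted p = 0.00357). Brca1 was called in all 6 fits that leave out 1 WT kidney. Bax, which also rose, is a p53 target that opens mitochondria in apoptosis, and was at 447, 465 and 435 in WT NTS and 349, 313 and 277 in WT control. Its rise was small and tight, at 1.44-fold (adjusted p = 0.0437), and it was lost in 5 of those 6 fits, all but the one without WT control 2. H2afx (now H2ax), the histone variant marked at DNA breaks, is in none of the lists and was 1.48-fold higher (adjusted p = 0.0454). H2afx was called in 2 of the 6 fits that leave out 1 WT kidney and under 1 of 5 scalings. Bax and Birc5 were the 2 called genes among 16 of apoptosis and cell death.

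Of 16 kidney injury genes, 4 rose, 0 fell and 9 had a higher level at an unadjusted p under 0.05, against 103 of all 677 tested genes. The list's median log2 change was 0.88, and 0.45 without WT NTS 1. Spp1, which encodes osteopontin, was at 401619, 80102 and 116421 in WT NTS, against 55189, 51035 and 42743 in WT control (log2 change 1.65, SE 0.45, adjusted p = 0.0454). Its call was lost without any 1 of the WT controls. WT NTS 1 alone carried 41.5% of its endogenous signal in Spp1, against 13.3% and 16.8% in WT NTS 2 and 3 and 6.83% to 9.06% in the controls. Quantile normalization, which ranks Spp1 first in every sample, gives it a log2 change of 0.00.

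The other injury genes that rose were Atf3, Lif and Ccl2. Atf3, a transcription factor of the stress response, was at 209, 90.7 and 130.0 in WT NTS, against 63.0, 41.5 and 35.6 in WT control (2.94-fold, adjusted p = 0.0246). Lif, a relative of interleukin 6, was at 186, 53.2 and 68.9 in WT NTS and 32.5, 24.1 and 19.9 in WT control (3.43-fold, adjusted p = 0.0354). The groups were apart for both, and WT NTS 1 was the highest kidney. The injury count was 2 without WT NTS 1, 7 without WT NTS 3, 1 without WT control 1, 0 without WT control 3, and 2 or 3 without any 1 KO kidney.

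The other 12 injury genes were not called. Vcam1, an adhesion molecule of activated endothelium and tubules, was at 1594, 365 and 324 in WT NTS and 144, 230.5 and 152 in WT control (log2 change 1.74, adjusted p = 0.0601). Il34, which signals through the receptor of Csf1, was at 639.6, 732 and 196 in WT NTS and 218, 119.6 and 166 in WT control (adjusted p = 0.06), so that WT NTS 3 lay among the controls. Egr1, an immediate early factor, was at 849, 172 and 340.4 in WT NTS and 174, 119.6 and 256 in WT control (adjusted p = 0.371). For Egr1, WT NTS 1 and 3 lay above the controls and WT NTS 2 within them. The epidermal growth factor family ligand Areg (0.92), the transcription factor Myc (0.83) and the adhesion molecule Icam1 (0.66) had positive log2 changes with adjusted p of 0.097, 0.167 and 0.192. Smaller log2 changes were those of the macrophage growth factor Csf1 (0.33), the matrix protease Mmp7 (0.32), Tgfb1 (0.26), Il6 (0.19) and the hyaluronan receptor Cd44 (0.14), with adjusted p of 0.567 to 0.883. Vcan, a matrix proteoglycan, was at 48.5, 21.9 and 30.1 in WT NTS and 136, 24.1 and 45.0 in WT control (log2 change -0.72, adjusted p = 0.439), with WT control 1 above every treated kidney.

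Of 32 tested chemokines, 5 rose and 0 fell, with a median log2 change of 0.32. The count was 3 without WT NTS 1, 3 without WT control 1 and 2 without WT control 3. Ccl20, the ligand of Ccr6 on Th17 cells and immature dendritic cells, was at 129, 127 and 44.6 in WT NTS, against 15.1, 14.7 and 14.7 in WT control. The controls were at or next to the floor, and WT NTS 3 lay well below the other treated kidneys (log2 change 2.53, adjusted p = 0.00343). Ccl2, which recruits Ccr2-bearing monocytes, was at 555, 133 and 98.9 in WT NTS and 56.4, 49.2 and 29.3 in WT control (4.41-fold, adjusted p = 0.0269). Ccl9, a myeloid attractant of rodents, was at 441, 165 and 154 in WT NTS and 59.2, 60.8 and 44.0 in WT control (4.08-fold, adjusted p = 0.00448). WT NTS 1 led both by a wide margin, yet WT NTS 2 and 3 also lay above every control.

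Ccl5 and Cxcl10, which attract T cells, were also called. Ccl5 was at 591, 159.5 and 127 in WT NTS, against 49.7, 96.4 and 33.5 in WT control (4.15-fold, adjusted p = 0.033). Cxcl10, induced by interferons, was at 457, 209 and 219 in WT NTS, against 58.3, 99.3 and 99.5 in WT control (3.28-fold, adjusted p = 0.0244). Each of WT NTS 1 and WT control 1 and 3 was needed for both calls, while Ccl20 and Ccl9 kept theirs in all 6 fits without 1 WT kidney. Of the other 27 chemokines, Ccl12 was at 215, 49.0 and 49.5 in WT NTS and 23.9, 44.4 and 20.9 in WT control and was not called (adjusted p = 0.17). The receptor of Ccl2, Ccr2, was at 532, 148 and 169.7 in WT NTS and 40.1, 157 and 70.2 in WT control (adjusted p = 0.0671), so that WT control 2 overlapped the treated kidneys. None of the 7 tested chemokine receptors was called with limma, and 3 had a higher level at an unadjusted p under 0.05.

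Antigen presentation through MHC class II was the immune list with the highest share of calls among those with at least 9 tested members. Of its 9 tested genes, 4 rose and 0 fell, 8 were higher at an unadjusted p under 0.05, and the median log2 change was 1.22. The promoters of 2 called members in the RefSeq table (GRCm38.p6) are shown with CCAAT and the interferon response letters GAAANNGAAA in capitals, on either strand, because class II and its proteases are known to respond to interferon. H2-DMb2 is at chr17:34144999-34145298 and Ctss at chr3:95526536-95526835, both on the plus strand.
H2-DMb2: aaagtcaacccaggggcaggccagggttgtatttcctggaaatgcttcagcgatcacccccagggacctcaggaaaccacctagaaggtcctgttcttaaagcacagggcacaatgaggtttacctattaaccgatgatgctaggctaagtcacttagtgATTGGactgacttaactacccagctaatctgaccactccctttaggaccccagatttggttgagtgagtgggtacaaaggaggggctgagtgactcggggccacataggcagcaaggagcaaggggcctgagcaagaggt
Ctss: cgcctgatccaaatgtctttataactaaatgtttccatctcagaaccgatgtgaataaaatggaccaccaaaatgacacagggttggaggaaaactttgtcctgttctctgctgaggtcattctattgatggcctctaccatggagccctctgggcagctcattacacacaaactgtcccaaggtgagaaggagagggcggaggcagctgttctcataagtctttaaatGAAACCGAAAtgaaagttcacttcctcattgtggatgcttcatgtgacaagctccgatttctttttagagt
The H2-DMb2 window held 1 CCAAT box on the opposite strand, and the Ctss window held 1 match to the interferon letters, which 3.44% of all promoter windows hold.

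H2-DMb2, a chain of the factor that loads peptide onto class II, was at 308, 78.2 and 60.1 in WT NTS, against 21.0, 28.9 and 18.9 in WT control (4.85-fold, adjusted p = 0.0186). Ctss, the protease cathepsin S that trims the invariant chain, was at 1431, 651 and 784 in WT NTS and 357, 456 and 385 in WT control (2.26-fold, adjusted p = 0.0242). The groups were apart for both genes. The invariant chain Cd74 was at 13498, 5937 and 5859.7 in WT NTS and 2124, 5347 and 3072 in WT control (2.38-fold, adjusted p = 0.0457). The class II beta chain H2-Ab1 was at 9302, 4604 and 4713 in WT NTS and 1374, 4352 and 2132 in WT control (2.51-fold, adjusted p = 0.0454).

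For Cd74 and H2-Ab1 the groups nearly touched: WT control 2 lay close under WT NTS 2 and 3. H2-Aa, the alpha chain, was at 8271, 4008 and 4622 in WT NTS and 1188, 4087 and 2022 in WT control, and there WT control 2 overlapped (adjusted p = 0.0504). H2-Eb1 and H2-DMa had log2 changes of 1.22 and 0.90 (adjusted p = 0.07 and 0.071). The count of class II genes called was 8 without WT control 2, 0 without WT control 1 or 3, and 2 without WT NTS 1 or any 1 KO kidney. Relative to the mean of the controls, the average log2 level of the whole list was 1.72, 0.76 and 0.78 in WT NTS 1, 2 and 3, against -0.50, 0.61 and -0.12 in WT control 1, 2 and 3.

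**Figure D3:**
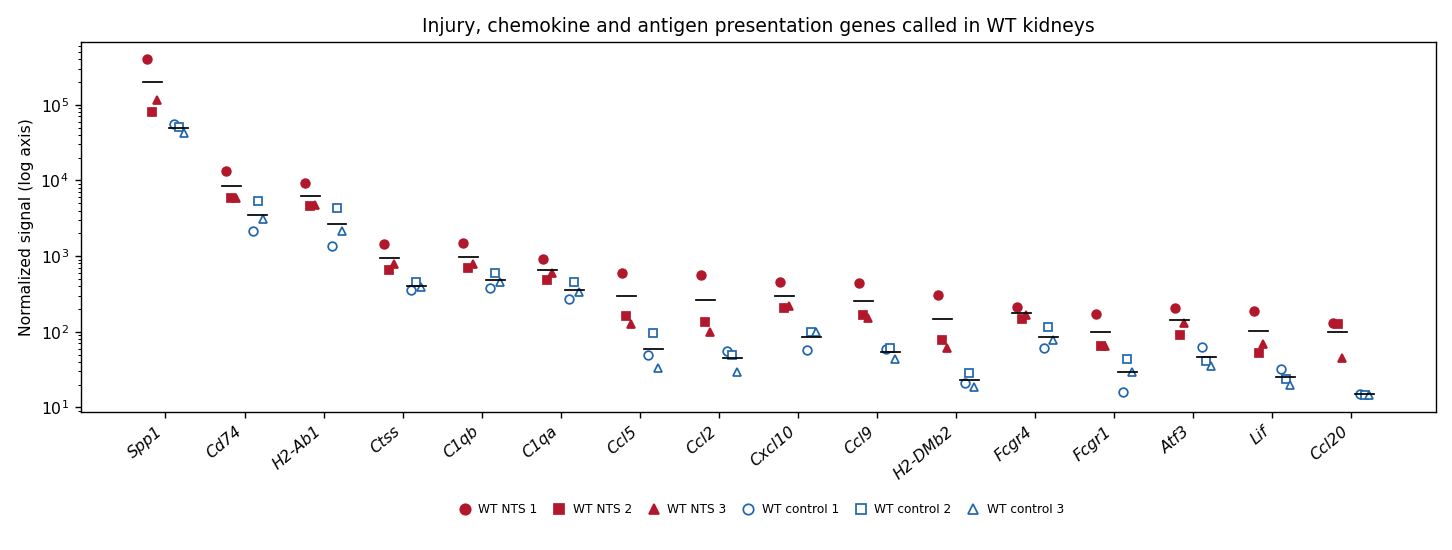
Normalized signal on a log axis of 16 called injury, chemokine, antigen presentation, Fc receptor and complement genes, with WT NTS kidneys as filled red symbols left of WT control kidneys as open blue symbols; bars are group means (n = 3 each). WT NTS 1 (red circle) is the highest treated kidney for 16 of 16 genes, and WT control 2 (open square) comes close to the treated kidneys for Cd74 and H2-Ab1.

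Genes of macrophages and of antibody sensing rose in part. Of 25 tested macrophage and monocyte genes, 4 rose (Fcgr1, Ctss, C1qa and C1qb) and 0 fell, with a median log2 change of 0.55. That median was 0.21 without WT NTS 1 and 0.84 without WT NTS 2. The count was 0 without WT control 1 or 3, and 1 without WT NTS 1 or any 1 KO kidney. Fcgr1, the high-affinity receptor for IgG, was at 172, 65.7 and 65.0 in WT NTS, against 16.2, 43.4 and 29.3 in WT control (3.20-fold, adjusted p = 0.038). Fcgr4, which binds IgG2 subclasses in mice and is also carried by neutrophils, was at 213, 148 and 165 in WT NTS, against 60.2, 116 and 78.5 in WT control (2.10-fold, adjusted p = 0.0243). The groups were apart for both, and they were the 2 called genes among 6 Fc receptor genes, of which 0 passed without WT NTS 1, WT control 1 or 3.

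Complement had 2 of 7 genes higher. C1qb, a chain of the recognition protein of the classical pathway, was at 1476, 692 and 782 in WT NTS and 381, 596 and 454 in WT control (1.98-fold, adjusted p = 0.044). C1qa, its partner chain, was at 910.4, 488 and 596 in WT NTS and 275, 454 and 332 in WT control (1.85-fold, adjusted p = 0.0454). The highest control, WT control 2, came within reach of WT NTS 2 in both, and neither was called once WT NTS 1, WT control 1 or 3 or any KO kidney was left out. The other 5 were not called: the classical pathway protease C2 (0.67), the integrin chains Itgax (0.60) and Itgam (0.59), the terminal component C7 (0.46) and the anaphylatoxin receptor C5ar1 (0.45) all had positive log2 changes, with adjusted p of 0.144 to 0.56.

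Summed levels of leukocyte markers differed in how far the groups were apart. Sums are over all list members on the panel, tested or not. The summed signal of 27 macrophage genes was 18824, 15367 and 14856 in WT NTS, against 12913, 13505 and 14138 in WT control. The sum of 11 neutrophil genes was 570, 371 and 401 in WT NTS, against 313, 336 and 345 in WT control. For both lists every treated kidney lay above every control, with WT NTS 1 the highest. These sums include the called genes Fcgr4 (neutrophil list) and Fcgr1, Ctss, C1qa and C1qb (macrophage list), so they are not separate from those calls. Taking these called genes out leaves the sums of both lists overlapping between the groups. The sums therefore add no support to the calls. Relative to the mean of the controls, the average log2 level of the 8 tested neutrophil genes overlapped. It was 0.44, -0.04 and 0.11 in WT NTS and 0.05, -0.02 and -0.03 in WT control. The macrophage list overlapped on that scale too. The sums of 29 T cell genes overlapped, at 2076, 2285 and 1697 in WT NTS and 2256, 2155 and 1812 in WT control. Those of 16 NK and cytotoxic genes overlapped too, at 429, 313 and 373 in WT NTS and 274, 350 and 226 in WT control. So did those of 12 dendritic and mast cell genes, at 732, 340 and 589 in WT NTS and 367, 569 and 386 in WT control. The part of leukocyte numbers in the immune calls was not tested. Of the 20 tested T cell genes 0 were called with limma, and 3 were higher and 1 lower at an unadjusted p under 0.05. Over all 677 tested genes these counts were 103 and 49, so the T cell counts are near the panel share. Of 4 tested B cell genes 0 were called and 0 passed unadjusted. The B cell gene Blk was at the floor in all 6 kidneys, as were Il2ra, Prf1, Ifng, Ceacam3, Cpa3 and Fcer1a.

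Single immune genes outside these lists also rose. Klrd1, the CD94 chain of NK cell receptors, was at 38.8, 31.3 and 37.8 in WT NTS and 15.1, 20.2 and 15.7 in WT control, with WT control 1 at the floor (2.06-fold, adjusted p = 0.0161), the 1 called gene of 11 in the NK list. Il33, an alarmin stored in nuclei, was at 423, 264 and 267 in WT NTS and 152, 189 and 178 in WT control (1.79-fold, adjusted p = 0.0445), the 1 called gene of 14 in the inflammasome and DNA sensing list. Cd48, a leukocyte adhesion ligand, rose 2.64-fold (adjusted p = 0.03) and Ms4a6b, a membrane protein of immune cells, 2.38-fold (adjusted p = 0.0302). For these 4 genes the groups did not overlap. Plod2, which hydroxylates collagen lysines for crosslinking, was at 1479, 1121 and 1099 in WT NTS, against 627, 568 and 544 in WT control. Plod2 had one of the tighter responses among the 37, 2.11-fold with an adjusted p of 0.01, and was lost only without WT control 3 among the 6 fits without 1 WT kidney.

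Several inflammatory lists held few calls or none. Over all tested genes 5.47% were called higher, so these counts lie near or under the panel share and say little about the lists. Of 40 interferon response genes 1 rose, Cxcl10, and the median log2 change of the list was 0.22. That median was 0.040 without WT NTS 1, 0.39 without WT NTS 2 and 0.14 without WT control 1. Mx1 and Oas1a, both antiviral effectors, had log2 changes of 0.91 and 0.90 (adjusted p = 0.116 and 0.14). Of 35 genes of the NF-kB and TNF pathways, 11 Toll-like receptor genes and 22 immune checkpoint genes, 0 were called with limma, and 3, 1 and 4 were higher at an unadjusted p under 0.05. Over all 677 tested genes 103 were higher at that p. Of 37 genes of matrix, integrins and TGF-beta, 1 rose, Spp1. Of 17 genes of MHC class I, 0 rose and 1 fell: H2-T23, the non-classical molecule Qa-1, at 1211, 1467 and 1487 in WT NTS, against 2469, 1643 and 2674 in WT control (1.60-fold lower, adjusted p = 0.0454). H2-T23 was called in 1 of the 6 fits that leave out 1 WT kidney, and it was not called without any 1 KO kidney.

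Among the genes that fell, those of glucose use formed the main group. Of 24 tested genes of hypoxia and glycolysis, 6 fell and 0 rose, and 17 had a log2 change below 0, with a list median of -0.25 against 0.08 over all genes. The 6 are the glucose transporter Slc2a1, the enzymes Hk1, Aldoc and Pkm, and the regulators Pfkfb3 and Pdk1. The count of 6 was 9 with median centring, 1 on the positive controls, 2 without WT control 1 and 1 without WT control 3. It was 3 without WT NTS 2, 4 without WT NTS 3, and 3 or 4 without any 1 KO kidney.

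Aldoc, an aldolase isoform best known from brain, was at 87.3, 79.2 and 137 in WT NTS, against 755, 256 and 393 in WT control (4.28-fold lower, adjusted p = 0.00448). The groups were apart, WT control 1 was the highest kidney, and the call held in all 6 fits without 1 WT kidney and under all 5 scalings. Hk1, a hexokinase that traps glucose in the cell, was at 429, 259.6 and 467 in WT NTS, against 916, 590.2 and 718 in WT control (1.95-fold lower, adjusted p = 0.0259). Slc2a1, the basolateral glucose transporter GLUT1, was at 1151, 496 and 739 in WT NTS, against 1936, 1128 and 1568 in WT control (2.01-fold lower, adjusted p = 0.044). It is the called gene whose groups overlapped, since WT NTS 1 lay just above WT control 2.

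Pfkfb3, which makes the activator of phosphofructokinase, was at 256, 130.3 and 158 in WT NTS, against 522, 351 and 270.2 in WT control (2.10-fold lower, adjusted p = 0.044). Pkm, a pyruvate kinase, was at 437, 348 and 461 in WT NTS, against 762, 581 and 646 in WT control (1.60-fold lower, adjusted p = 0.0373). WT NTS 2 was the lowest kidney for both. Pdk1, a kinase that keeps pyruvate out of the mitochondrial cycle, was at 757, 651 and 968 in WT NTS, against 1371, 1496 and 1561 in WT control (1.89-fold lower, adjusted p = 0.00977). Its controls lay close together and well above the treated kidneys. Muscle-type phosphofructokinase Pfkm (-0.65), the oxidoreductase Ero1l, now Ero1a (-0.35), and the collagen crosslinking enzyme Loxl2 (1.31) had log2 changes that were not called (adjusted p = 0.106, 0.113 and 0.108).

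Markers of the tubular epithelium were split. Egf, the growth factor made in the distal tubule, was at 6087, 8325 and 13638 in WT NTS, against 19031, 30645 and 27619 in WT control (2.86-fold lower, adjusted p = 0.0158). Epcam, an adhesion molecule of the distal nephron and collecting duct, was at 2112, 974 and 2020.2 in WT NTS, against 5986, 2482 and 3773 in WT control (2.38-fold lower, adjusted p = 0.0415). All treated kidneys were below all controls for both, with WT NTS 1 the lowest for Egf and WT NTS 2 for Epcam. Epcam lost its call without WT NTS 2 or WT control 1, both did without WT control 3, and 1 of them passed without any 1 KO kidney. The other 7 of 9 nephron genes were not called. Among them were the growth hormone receptor Ghr (-0.63), Cdh1 (-0.30) and Cdh2 (0.19), which join epithelial cells, the prolactin receptor Prlr (-0.20), Fbp1 (0.08) and the growth factor receptor Met (0.20), all as log2 changes with adjusted p of 0.285 to 0.903. The summed signal of all 10 nephron genes on the panel was 48701, 61184 and 68844 in WT NTS, against 64063, 94736 and 84562 in WT control.

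Other lower genes belong to metabolism, growth control and signalling. Mtor, the kinase that couples nutrients to growth, was at 972, 1605 and 1222 in WT NTS, against 2276, 2130.4 and 3179 in WT control (2.01-fold lower, adjusted p = 0.0242), and passed under all 5 scalings. Got1, an aspartate aminotransferase, was at 2078, 1953 and 2440.1 in WT NTS, against 4441, 2917 and 3347 in WT control (1.64-fold lower, adjusted p = 0.044). Pla1a, a phosphatidylserine phospholipase, was at 234, 139 and 232 in WT NTS, against 546, 327 and 465 in WT control (2.22-fold lower, adjusted p = 0.0242). Each of these 3 genes had every treated kidney below every control. Cntfr, a receptor chain for ciliary neurotrophic factor, was at 35.9, 37.5 and 43.6 in WT NTS, against 67.8, 77.2 and 74.3 in WT control (1.85-fold lower, adjusted p = 0.0374). Comp, a matrix protein first described in cartilage, was at 20.4, 18.8 and 31.0 in WT NTS, against 44.9, 46.3 and 56.5 in WT control (2.10-fold lower, adjusted p = 0.0441). Both are weakly expressed here, with treated kidneys not far above the floor. Gas1, a Hedgehog co-receptor, and Mxi1, a partner of Max that opposes Myc, were 1.55-fold and 1.59-fold lower (adjusted p = 0.0374 and 0.0454). Of the 6 fits that leave out 1 WT kidney, Cntfr and Mxi1 were called in 1, and Got1, Comp and Gas1 in 2.

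**Figure D4:**
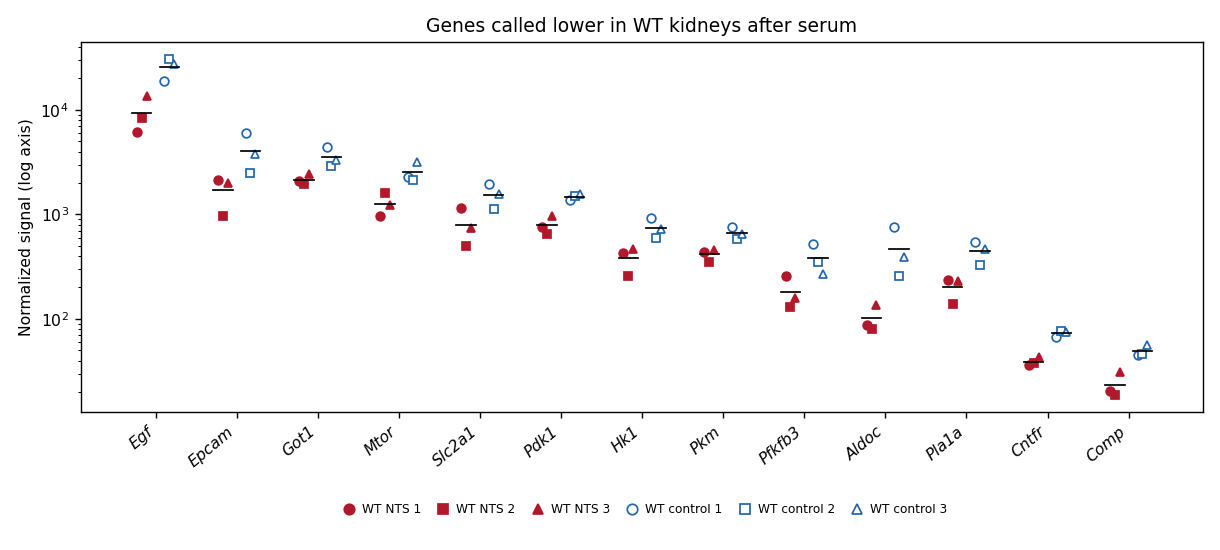
Normalized signal on a log axis of 13 genes called lower after serum, with WT NTS kidneys as filled red symbols left of WT control kidneys as open blue symbols; bars are group means (n = 3 each). Every treated kidney lies below every control for 12 of the 13 genes; for Slc2a1, WT NTS 1 lies just above WT control 2.

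Glomerular and vascular genes, close to the site where the serum antibody binds, gave no calls. Of 13 tested podocyte and glomerular genes 0 were called with limma, 0 were higher and 3 lower at an unadjusted p under 0.05, and the median log2 change was -0.35. Over all 677 tested genes 5.47% were called higher and 2.51% lower, so 0 calls among 13 are near the panel share. At an unadjusted p under 0.05, 49 of the 677 were lower. Angpt2, an antagonist of the vascular receptor Tie2, was at 179.6, 94.9 and 172 in WT NTS and 637, 244 and 377 in WT control (log2 change -1.44, adjusted p = 0.0952). Mmrn2, an endothelial matrix protein, had a log2 change of -0.70 (adjusted p = 0.0922), and Gata3, a transcription factor of mesangial and collecting duct cells, of -0.84 (adjusted p = 0.145). The groups did not overlap for these 3 genes, which all lay lower in treated kidneys. Ren1, the renin of the juxtaglomerular cells, was at 5765, 3421 and 3623 in WT NTS and spread more widely at 9182, 4074 and 14683 in WT control (adjusted p = 0.349).

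Of 15 Wnt genes 0 were called with limma, while 6 were lower and 0 higher at an unadjusted p under 0.05, against 49 and 103 of all 677 tested genes. The list median was -0.42 (-0.27 without WT control 1). Wnt7b, a ligand of the collecting duct, was at 50.5, 40.7 and 36.9 in WT NTS and 394, 68.5 and 86.9 in WT control (log2 change -1.63, adjusted p = 0.0674). The groups were apart, and WT control 1 was far above all others. Id4, an inhibitor of DNA binding, had a log2 change of -1.03 (adjusted p = 0.0614). WT control 1 also stood apart for Cdkn2b, the cell cycle inhibitor p15, at 82.5, 44.8 and 47.5 in WT NTS and 708, 39.5 and 147 in WT control (adjusted p = 0.281).

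The 20 housekeeping genes that set the scale were measured in the same way, and 0 were called with limma. Tfrc, the transferrin receptor, was at 742, 789 and 877 in WT NTS and 1082, 1768 and 1259 in WT control, without overlap (log2 change -0.74, adjusted p = 0.0509). The lysosomal enzyme Gusb, ubiquitin gene Ubb and polymerase subunit Polr2a had log2 changes of 0.60, 0.95 and -0.39 (adjusted p = 0.0796, 0.0593 and 0.116). The remaining 16 lay between -0.30 and 0.35.

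The 3 treated kidneys differed in their levels of the called genes. WT NTS 1 was the highest treated kidney for 33 of the 37 genes that rose, and WT NTS 2 for the other 4. For the 17 genes that fell, WT NTS 2 was the lowest in 13 and WT NTS 1 in 4. Relative to the mean of the controls, the average log2 level of all 677 tested genes was 0.45, -0.11 and 0.13 in WT NTS 1, 2 and 3. The WT controls lay between -0.08 and 0.08. The part of this panel-wide shift in the order of the treated kidneys was not tested. For the kidney injury list the level was 1.83, 0.34 and 0.52 in WT NTS 1, 2 and 3, against 0.32, -0.11 and -0.21 in WT control 1, 2 and 3. For the division list it was 1.64, 1.00 and 0.72 in WT NTS, against -0.09, 0.26 and -0.17 in WT control, so division genes separated all treated kidneys from all controls. The injury list did so too, by a narrow margin. Among other lists, those of MHC class II, Fc receptors, complement and chemokines also separated the groups. The macrophage list did not, at 1.00, 0.02 and 0.42 in WT NTS and -0.07, 0.16 and -0.09 in WT control.

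These values are a property of single animals, and the labels give no batch, litter or disease score to set beside them. The genes called in every one of the 6 fits without 1 WT kidney were 9, among them Mki67, Birc5, Rrm2, Cenpf, Brca1, Ccl20, Ccl9 and Aldoc. Under all 5 scalings 29 of the 54 were called.

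The same contrast in the KO kidneys, which shares no sample with it, shows which of these changes recur. In KO kidneys 48.2% of the tested genes were called, 39.6% higher and 8.57% lower. All 37 genes that rose in WT kidneys were also called higher in KO kidneys. Of the 17 genes that fell, 7 were also called lower in KO kidneys: Egf, Aldoc, Mtor, Pdk1, Ccnd3, Gas1 and Comp. The 44 shared calls are 81.5% of the WT calls and 13.5% of the 326 KO calls.

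The 10 lower genes without a call in KO kidneys include 4 of the 6 glucose genes. Hk1, Pkm and Pfkfb3 had log2 changes of -0.23, -0.27 and -0.08 in KO kidneys (adjusted p = 0.428, 0.213 and 0.862). Whether these differ from the WT values is a matter for the difference itself, which was called for Slc2a1 alone among the 6. Slc2a1 had log2 changes of 0.47 in KO and -1.01 in WT kidneys (difference 1.48, SE 0.38, adjusted p = 0.0356).

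Over the 54 WT calls the difference between both responses was called for 5. Besides Slc2a1 these were Egf (difference -2.42), Ccl20 (2.68), Lif (2.72) and Spp1 (2.26), as log2 KO response minus WT response, and each of these 4 changes was larger in KO kidneys. The 49 others include Mki67 and Birc5, with log2 changes of 2.82 and 2.66 in KO kidneys and 3.49 and 3.14 in WT kidneys. Over all genes 70 differences were called (10.3%), 65 of them higher (9.6%) and 5 lower (0.739%) as KO minus WT response, and 194 had an unadjusted p under 0.05. The balance depended on scaling, with 12 higher and 8 lower after median centring and 20 higher and 26 lower after quantile normalization. The median difference over all genes was 0.38, against -0.13 and -0.047 under these scalings. The count of 70 was 207 without WT NTS 1, 89 without WT control 2, 42 without KO NTS 2 and 0 without any of the other 9 samples (154 to 183 at an unadjusted p under 0.05).

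**Figure D5:**
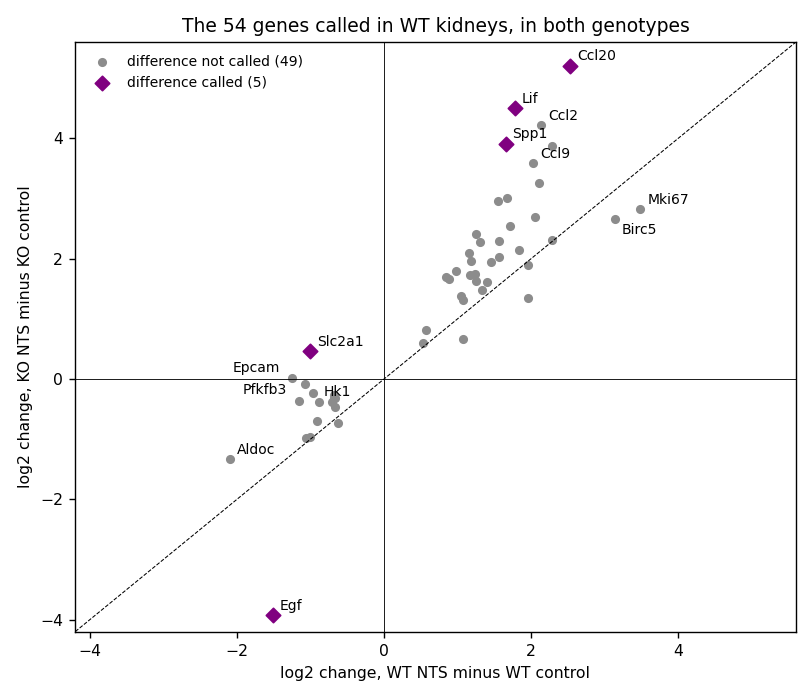
Log2 change after serum in KO kidneys (vertical axis) against that in WT kidneys (horizontal axis) for the 54 genes called in WT kidneys; the dashed line marks equal change. Purple diamonds are the 5 genes whose difference was called and grey points the other 49; the genes that rose in WT kidneys all lie above 0 in KO kidneys, and Slc2a1 and Epcam are the genes of opposite sign.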

How the data were processed

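Per the file headers, the deposited signal is normalized and covers endogenous genes, housekeeping genes and control probes. Housekeeping genes had a geometric mean of 380.1 in 11 kidneys and of 384.2 in KO control 3, and negative controls set a floor. The instrument, software and run of each sample are not given in the sources used here, and 0 sample columns were left unmapped. Two-sided tests were made on log2(value + 1) with limma 3.58.1 (R 4.3.3), over all 12 samples with 1 mean per group, a variance trend and no covariate. Genes needed a signal of 20 or more in 3 or more samples, and Benjamini-Hochberg adjustment ran over all 677. Folds are on that scale and understate changes of low genes.

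The contrast and the 33 gene lists were chosen with earlier results of these data known. Some lists share members. Named genes are called genes, up to 4 others per list taken by p, and every nephron, injury, complement or housekeeping gene that is given by name; some genes are not reported here. The labels number samples, and the correlations of deviations of same-numbered WT samples were 0.0014, -0.11 and 0.10, so numbers were not used as pairs. The steps were run on simulated data of this contrast with 677 genes, 200 of them changed. Recovery was 35% at 1.5-fold, 71.1% at 2-fold and 96.8% at 4-fold, with 3.46% of the calls false. The simulated noise had no floor and used 1 spread per gene, pooled over all 4 groups. In the data the median standard deviation was 0.41 in WT NTS and 0.26 in WT control, against 0.22 in KO NTS and 0.17 in KO control. The simulated shares therefore do not measure the error of the 54 calls. Summed endogenous signal was 601490 to 967120 in WT kidneys, a scaled sum that gives no depth, and the number of samples limits precision. Accessions of 748 of 770 genes matched RefSeq (GRCm38.p6), used for names and promoters; genes of the H2 and Fcgr families may share signal.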

Additional observations from a re-analysis of the deposited data

Results flagged for a closer look

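For 14 named genes the serum response differed between KO and WT kidneys by the test of the difference itself (limma, adjusted p = 0.0351 to 0.0469). All values are log2 differences, KO response minus WT response. Among injury genes they were 4.01 for Mmp7, 3.63 for Vcan, 2.72 for Lif, 2.26 for Spp1, 2.16 for Il34, 1.71 for Csf1 and 1.67 for Myc. In WT kidneys only Lif and Spp1 of these were called. The controls of Mmp7 were at the floor in 3 of 3 KO and 2 of 3 WT kidneys, so its size is uncertain.

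Among chemokines and myeloid genes the differences were 2.68 for Ccl20, 2.42 for Cxcl5, a neutrophil attractant, 2.26 for Itgam and 1.67 for C7. Among tubular and metabolic genes they were -2.42 for Egf, -1.73 for Fbp1 and 1.48 for Slc2a1. Fbp1 had a log2 change of -1.65 in KO and 0.08 in WT kidneys, and Vcan of 2.91 in KO and -0.72 in WT kidneys. The count behind these calls was 0 in 9 of 12 fits without 1 sample.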

How the results depend on the processing

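With 3 kidneys per group the limits lie in the spread of the WT kidneys and in the floor, which hides the lowest levels. The 54 calls were 48 to 54 with other pseudocounts, filters, common reference genes or robust variances, 78 with median centring and 51 with quantile normalization. They were 37 without a variance trend and 37 on the positive controls, which were chosen after seeing the data. They were 2 with the WT groups alone, 126 with sample weights (0.207 for WT NTS 1, 3.13 for WT control 3) and 1 with a 2-fold minimum. The median log2 change of all genes was 0.08, against -0.19 with median centring and 0.20 on the positive controls. Leaving out 1 sample gave 9 (WT control 3) to 94 (WT control 2) calls; without WT NTS 1 and WT control 1 together, added after seeing the data, it was 27. The replicate number as a block gave 39 calls, 36 of them shared, and 72 for the difference between genotypes. That difference had 70 calls, 20 with median centring, 46 with quantile normalization, 9 on the positive controls and 0 to 207 with 1 sample left out. The count model planned for raw counts was not run, since the deposited values are scaled and floored.

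Among called genes the sign of 1 was lost, Spp1 at 0.00 with quantile normalization. Signs that turned were of genes not called, as log2 changes. With median centring they were Cd44 -0.12, Cdh2 -0.072, Fbp1 -0.19, Il6 -0.079, Met -0.068 and Tgfb1 -0.0091. With quantile normalization they were Cd44 -0.027 and Cdh2 -0.081, and with sample weights Il6 -0.0088 and Prlr 0.60. Without WT NTS 1 and WT control 1 together they were C5ar1 -0.045, Cd44 -0.056, Csf1 -0.16, Fbp1 -0.065, Il6 -0.26, Itgam -0.072 and Tgfb1 -0.14. With 1 sample left out in turn the range crossed 0 for C5ar1 (-0.10 to 0.80), Cd44 (-0.15 to 0.62), Cdh1 (-0.55 to 0.094), Csf1 (-0.083 to 0.60), Fbp1 (-0.17 to 0.29), Il6 (-0.31 to 0.50), Mmp7 (-0.28 to 1.10), Prlr (-0.71 to 0.48) and Tgfb1 (-0.087 to 0.46). The cause was not tested.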
